A study of Mus musculus with 8 samples.

Results

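The regions described here were 339 stretches of open chromatin of mouse bone marrow stromal cells that were called in the libraries ATAC4 and ATAC5 and lay far from any region called in ATAC1. They were 2.17% of the 15650 peaks of ATAC4. Each shared at least 1 base with an ATAC5 peak, and more than 500 bases separated it from the nearest ATAC1 peak. The members were therefore chosen by the peak calls of these 3 libraries, and what these calls show of them is a description. Of the members, 161 were promoter regions, with the peak centre within 1000 bases of an annotated transcript start, and 178 were distal.

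The study sorted Lin-, Sca-1+, PDGFR-α+ cells of the marrow into subpopulations, and 7 libraries, ATAC1 to ATAC7, were made from them by ATAC-seq beside 1 Input library. The labels give wild type C57BL/6J mice of 6 weeks for all of them, and the study's methods name the strain C57BL/6JJcl. The study compared, among other things, its clusters 4 and 5 with its cluster 1. The labels tie no title to a cluster and give 1 library per title, so libraries keep their titles here and no difference has a replicate check. In such bulk libraries, fewer cells with a region open and less opening per cell cannot be told apart.

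In ATAC-seq the transposase Tn5 inserts adapters where DNA is not covered by nucleosomes, so that reads pile up at promoters and at distal elements such as enhancers. Promoters of broadly used genes are often rich in CpG and open in most cell types, whereas distal elements are more often open in particular cell types and are bound there by factors such as the Runx and AP-1 families. A peak is a region in which a library holds more reads than the Input.

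The sequences of some members are given first, in the build mm9 (NCBIM37), on the forward strand, 5′ to 3′. The first 3 are the members among the 12 best-ranked promoter regions whose peak spans 50 to 300 bases without untranslated sequence. They show Sp4, the best-ranked member, and the boxes in it and in others, but not every strong member holds such a box: Rbm15, Zfp295 and Cltc had none in the 300 bases around the centre. Capitals mark GGGCGG or its reverse complement, the box bound by Sp and Klf factors.
Sp4, chr12:119540502-119540637: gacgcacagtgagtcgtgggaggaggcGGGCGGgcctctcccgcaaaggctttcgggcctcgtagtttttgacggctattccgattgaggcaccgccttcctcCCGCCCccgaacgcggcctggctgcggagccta
E130307A14Rik and Rev3l, chr10:39451280-39451438: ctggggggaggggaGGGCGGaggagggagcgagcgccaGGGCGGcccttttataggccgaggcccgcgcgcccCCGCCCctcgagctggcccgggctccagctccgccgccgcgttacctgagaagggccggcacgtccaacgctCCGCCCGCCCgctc
Gm16845 and Zfp653, chr9:21875351-21875434: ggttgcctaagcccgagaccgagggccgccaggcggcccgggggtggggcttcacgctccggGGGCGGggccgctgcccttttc
The peak at Sp4 held 2 such boxes, that at E130307A14Rik 5, of which 2 overlap, and that at Gm16845 1.

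The next 6 were picked, after their values were seen, from 9 distal members of 50 to 300 bases that the naming rule takes and that hold a match to the Runx core TGTGGT or to the AP-1 element TGANTCA, on either strand. Those near Qk, Lcor and Slc1a5 are not printed. Capitals mark these matches. Each line opens with the nearest protein-coding gene.
Zfp365, chr10:67218820-67218990: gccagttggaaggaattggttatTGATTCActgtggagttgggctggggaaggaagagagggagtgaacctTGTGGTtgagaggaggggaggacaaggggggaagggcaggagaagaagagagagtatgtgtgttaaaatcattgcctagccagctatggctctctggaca
Mdfi, chr17:47979259-47979546: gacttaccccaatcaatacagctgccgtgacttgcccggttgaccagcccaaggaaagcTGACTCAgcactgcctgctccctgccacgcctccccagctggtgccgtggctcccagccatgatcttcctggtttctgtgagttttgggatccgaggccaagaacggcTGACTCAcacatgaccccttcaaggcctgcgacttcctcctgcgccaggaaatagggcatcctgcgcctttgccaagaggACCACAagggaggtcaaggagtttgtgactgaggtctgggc
Lrp1, chr10:127041677-127041932: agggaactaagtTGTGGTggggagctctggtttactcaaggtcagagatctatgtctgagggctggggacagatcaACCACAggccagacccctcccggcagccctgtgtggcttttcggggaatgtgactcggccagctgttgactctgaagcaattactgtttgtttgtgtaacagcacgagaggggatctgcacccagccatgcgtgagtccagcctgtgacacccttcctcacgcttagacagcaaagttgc
Gm9915, chr1:42226296-42226580: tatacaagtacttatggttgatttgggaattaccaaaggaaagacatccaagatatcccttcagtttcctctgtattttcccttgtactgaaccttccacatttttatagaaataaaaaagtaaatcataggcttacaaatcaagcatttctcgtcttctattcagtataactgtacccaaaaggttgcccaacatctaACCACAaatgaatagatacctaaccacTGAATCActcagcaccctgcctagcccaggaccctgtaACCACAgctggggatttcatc
Ccnd1, chr7:152296740-152296803: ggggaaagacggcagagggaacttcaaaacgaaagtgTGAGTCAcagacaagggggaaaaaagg
Nt5e, chr9:88171979-88172079: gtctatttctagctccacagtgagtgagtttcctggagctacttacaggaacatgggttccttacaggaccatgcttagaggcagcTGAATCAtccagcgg
The peaks at Zfp365, Mdfi and Gm9915 held both elements, that at Lrp1 held only the Runx core, and those at Ccnd1 and Nt5e held only the AP-1 element.

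The Sp4 and Sp1 promoters were the best-ranked members. Sp1 and Sp4 encode zinc finger factors that bind GC boxes. The Sp4 region ranked 3 in ATAC4, with 2504 library reads against 168 Input reads and a fold over Input of 16.9. This fold is the library reads times a scale factor of the library, divided by the Input reads. In ATAC5 the region had 4792 reads and a fold of 44.4, and in ATAC2 it had 3320 reads and a fold of 29.1. No other library had a peak there: the nearest peak was 308323 bases away in ATAC1, 458167 in ATAC3, 458225 in ATAC7 and 1096 in ATAC6. The Sp1 region, chr15:102236200-102236630, ranked 27, with 2150 reads and a fold of 17.1 in ATAC4 and 3337 reads and a fold of 40.8 in ATAC5. ATAC6 had a fold of 49.8 and ATAC2 one of 19.3 at Sp1, while ATAC1 came no closer than 5963 bases. The Input held 142 reads at Sp1 and 168 at Sp4, against a median of 34 for the peaks of ATAC4 and 42 for its promoter peaks. Reads are counted over a wider outer region around each peak. This region spanned 1721 bases at Sp1 and 1814 at Sp4, against a median of 306 for members. The part that these Input counts and widths play in the calls was not tested.

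The promoter members ranked next differed in which libraries called them. Ube2d3, which encodes a ubiquitin-conjugating enzyme, ranked 45 with 2245 reads and a fold of 13.1 in ATAC4 and 3826 reads and a fold of 32.9 in ATAC5. It was called in ATAC2 with a fold of 20.05 and in ATAC7 with 12.2, and ATAC1 came no closer than 1732 bases. Abtb1 ranked 208, with a fold of 12.7 in ATAC4, 26.3 in ATAC5, 15.3 in ATAC2 and 29.5 in ATAC6. Like Sp1 it had no peak in ATAC3 or ATAC7.

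Of the 12 best promoter members, 3 were called in all 6 libraries other than ATAC1. The first was the promoter shared by AC099934.1 and Rps29, a gene of the small ribosomal subunit, with folds of 10.7 in ATAC4, 34.2 in ATAC5, 21.7 in ATAC2, 9.02 in ATAC3, 28.02 in ATAC6 and 11.4 in ATAC7. The others were Rbm15, an RNA-binding protein of the m6A methylation complex, with folds from 15.5 in ATAC4 to 35.1 in ATAC6, and the zinc finger gene Zfp295, with folds from 7.11 in ATAC7 to 20.1 in ATAC5. For Rbm15 an ATAC1 peak lay 965 bases away, whereas for Zfp295 the distance was 34042 bases.

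Rpl24, of the large ribosomal subunit, had 914 reads and a fold of 10.6 in ATAC4 and 1846 reads and a fold of 24.1 in ATAC5. It was called in ATAC3 and ATAC7 with folds of 10.97 and 12.3. Cltc, the clathrin heavy chain, was called in ATAC3 and ATAC6, with a fold of 7.03 in ATAC4 and 18.8 in ATAC5. The promoter of E130307A14Rik, 565 bases from a start of the DNA polymerase gene Rev3l, had folds of 7.96 in ATAC4, 23.5 in ATAC5 and 22.3 in ATAC6. Epc2, a subunit of a histone acetyltransferase complex, had folds of 6.35 in ATAC4, 21.0 in ATAC5 and 7.08 in ATAC7. The Gm16845 and Zfp653 promoter was called in ATAC4 and ATAC5 only, with 357 reads and a fold of 6.52 in ATAC4 and 1068 reads and a fold of 24.1 in ATAC5, but an ATAC2 peak ended 14 bases from it.

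**Figure D1:**
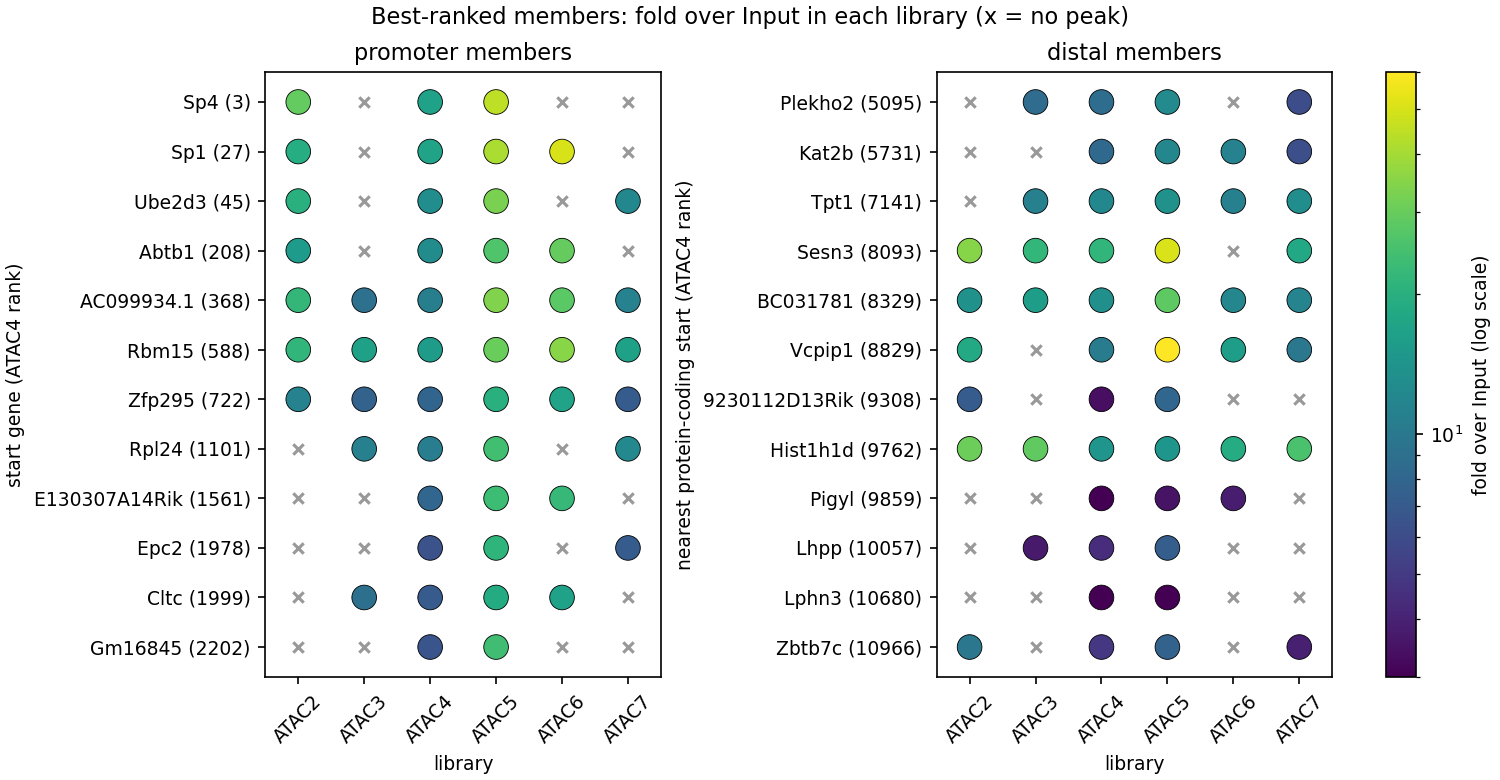
The authors' fold over Input (colour, log scale) of the 12 best-ranked promoter members and the 12 best-ranked distal members (rows, ATAC4 rank in brackets) in 6 libraries (columns), with a cross where the library had no peak. At Sp4 the fold was 16.9 in ATAC4 and 44.4 in ATAC5, with crosses in ATAC3, ATAC6 and ATAC7.

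Distal members ranked far lower. The best was at rank 5095, near Plekho2, with 168 reads and a fold of 8.64 in ATAC4 and 174 reads and a fold of 12.4 in ATAC5. It lay 1091 bases from the Plekho2 start, just past the limit for promoters, and 785 bases from an ATAC1 peak. A region in an intron of Kat2b, a histone acetyltransferase gene, had folds of 8.28 in ATAC4 and 12.03 in ATAC5. The region 1099 bases from the start of Sesn3, a stress-response gene, was the distal member among the 12 best with the highest ATAC4 fold, 21.2, and it had 50.7 in ATAC5, 35.0 in ATAC2, 21.5 in ATAC3 and 18.1 in ATAC7. These 3 regions lay inside the wider outer region of an ATAC1 peak.

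Among the other distal members of the best 12, a region 10616 bases from Tpt1 had folds of 12.2 in ATAC4 and 13.5 in ATAC5 and lay 5109 bases from ATAC1. One in an intron of 1700034P13Rik, 24701 bases from the start of the deubiquitinase gene Vcpip1, had 92 reads in ATAC4 and 111 in ATAC5, and its ATAC5 fold of 63.2 rested on 3 Input reads. A region in the untranslated sequence of Hist1h1d, a linker histone gene, had folds of 14.3 in ATAC4 and 14.5 in ATAC5, and one 2235 bases from BC031781 had 13.4 and 28.6.

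The rest of the 12 were weak. Regions 26651 bases from 9230112D13Rik, 8097 from Pigyl and 25889 from Lhpp had ATAC4 folds of 3.36, 2.82 and 4.39. A region in an intron of Zbtb7c, a zinc finger gene, had a fold of 4.84. The region 1206455 bases from Lphn3, the nearest protein-coding start, had 61 reads against 34 Input reads and a fold of 2.03, the lowest of all members.

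Most members were weak peaks. Of the 339, 23 ranked from 1 to 3912 in ATAC4, 24 from 3913 to 7825, 52 from 7826 to 11737 and 240 from 11738 to 15650. The median ATAC4 fold of the members was 5.43 (quartiles 3.60 and 8.25) against 6.13 over all ATAC4 peaks, with a median of 70 library reads against 158. Promoter members had a median fold of 5.05 and 97 reads, and distal members 5.76 and 60.5. Their ranks in ATAC5 ran from 6 to 30991 with a median of 13653.

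The fold was higher in ATAC5 than in ATAC4 at nearly every member. Among the 314 members with at least 5 Input reads in both libraries, 312 had the higher fold in ATAC5, with a median ratio of 2.06 (quartiles 1.58 and 2.58). The ratio was no higher than in the 10078 ATAC4 peaks that overlapped both ATAC5 and ATAC1, whose median was 2.201 (quartiles 1.81 and 2.62). The 2 exceptions were the promoters of Rcc2, with 6.22 in ATAC4 and 5.71 in ATAC5, and of 2310045N01Rik and Mef2b, with 5.43 and 5.35.

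**Figure D2:**
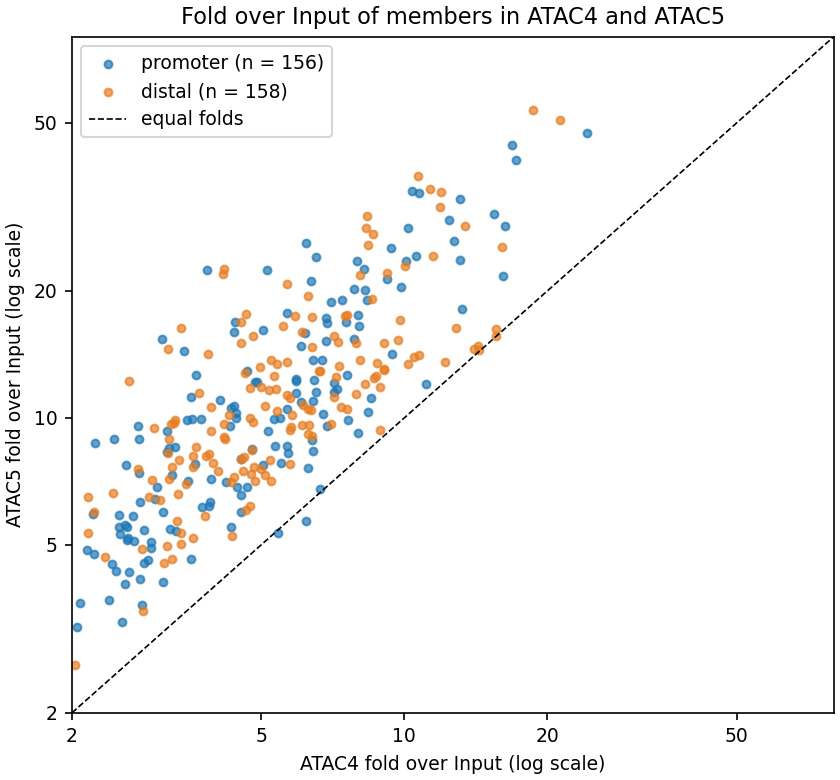
The fold over Input in ATAC4 (x axis) and ATAC5 (y axis), both on log scales, of the 314 members with at least 5 Input reads in both libraries, with promoter and distal members in different colours and the dashed line at equal folds. Points lie above the line for 312 members, with a median ratio of 2.06.

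The ratio varied among these 314 members. The highest ratio among promoter members was 5.80 at a region of Irs1, the insulin receptor substrate, followed by 4.99 at 1700041G16Rik and 4.35 at another region of Irs1. The 2 Irs1 regions share 1 ATAC5 peak of 1189 reads and a fold of 22.4, so that they are not separate observations in ATAC5. Next came the promoter of Steap4, a metalloreductase, with 4.18 and that of Col11a1, a chain of a cartilage collagen, with 4.17. At Col11a1 the fold was 6.22 in ATAC4, 25.9 in ATAC5, 17.1 in ATAC2, 22.3 in ATAC6, 5.13 in ATAC3 and 8.17 in ATAC7, and the nearest ATAC1 peak lay 399673 bases away. ATAC2, ATAC5 and ATAC6 were the high libraries at Col11a1, as they were over all their peaks, where the median folds were 9.27, 10.9 and 10.1 against 6.13 in ATAC4, 5.77 in ATAC3 and 5.97 in ATAC7.

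Among distal members with at least 5 Input reads in both libraries, the ratio was highest, at 5.39, in a region 142850 bases from the zinc finger gene Zfp365. Its folds were 4.17 in ATAC4, 22.5 in ATAC5, 7.56 in ATAC2, 4.03 in ATAC3, 10.3 in ATAC6 and 7.81 in ATAC7. Far upstream of Sesn3, at 186070 bases, it was 5.28, and 7762 bases from Mdfi it was 4.81, with folds of 3.40 in ATAC4 and 16.3 in ATAC5. Regions near Fam49a and Sgms1 had 4.63 and 4.58. With the same limit on Input reads, the 5 lowest ratios among distal members lay between 1.00 and 1.04, near Dhrs3, Hist1h1d, Qk, Armc3 and Tnfaip3, the last an inhibitor of NF-κB signalling. Low ratios among promoter members were also seen at Rhof, Rai2 and Neat1, with 1.02, 1.08 and 1.15.

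Over all ranks, members were called less often in ATAC3 and ATAC7 than ATAC4 peaks as a whole. A peak of ATAC2 shared a base with 229 members, or 67.6% (95% Wilson interval 62.4 to 72.3), against 72.2% of all ATAC4 peaks. For ATAC6 the number was 244, or 72.0% (67.0 to 76.5), against 74.5%. For ATAC3 it was 117, or 34.5% (29.7 to 39.7), against 71.5%, and for ATAC7 it was 134, or 39.5% (34.5 to 44.8), against 67.2%. No peak in any of the 4 was found at 29 members, or 8.55% (6.02 to 12.02), against 8.83%. Members overlap ATAC5 by the rule, and ATAC4 peaks that overlapped ATAC5 and ATAC1 had higher shares in all 4 libraries: 87.6% in ATAC2, 90.4% in ATAC6, 85.5% in ATAC3 and 81.6% in ATAC7, with 1.16% in none. The intervals cover counting error over regions only, and amplified reads are not independent molecules.

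The lists differed in length: ATAC2 held 32280 peaks and ATAC6 28969, but ATAC3 held 16027 and ATAC7 15188. When every list was cut to its 15188 best-ranked peaks, 526 regions met the rule and the order of the libraries changed. ATAC6 then called 65.4% of them (61.2 to 69.3), ATAC7 55.3% (51.1 to 59.5), ATAC2 53.4% (49.1 to 57.6) and ATAC3 46.2% (42.0 to 50.5), against 67.9, 68.4, 61.8 and 71.6% of all ATAC4 peaks in this cut. ATAC2, ATAC3 and ATAC7 were below all ATAC4 peaks beyond their intervals, but ATAC7 no longer stood below ATAC2.

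The order of the 4 libraries was the same at promoter and distal members. ATAC2 called 104 of the 161 promoter members, or 64.6% (56.9 to 71.6), against 77.7% of all promoter ATAC4 peaks, and 125 of the 178 distal ones. ATAC6 called 116 promoter members, or 72.0% (64.7 to 78.4), against 77.6%, and 128 distal ones, or 71.9% (64.9 to 77.996), against 64.7%. ATAC3 called 66 promoter members, or 41.0% (33.7 to 48.7), against 77.7% of all promoter ATAC4 peaks, and 51 distal members, or 28.7% (22.5 to 35.7), against 52.2% of all distal ones. ATAC7 called 73 promoter and 61 distal members, or 45.3% (37.8 to 53.1) and 34.3% (27.7 to 41.5), against 73.7 and 46.9%. At distal members the ATAC2 share of 70.2% (63.1 to 76.5) lay above the 55.0% of all distal ATAC4 peaks, which need not overlap ATAC5, and below the 77.2% of distal ATAC4 peaks that overlapped ATAC5 and ATAC1.

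The weak rank of the members bears on these shares, so they were also compared within ranks 11738 to 15650. There, 70.4% of the 240 members were called in ATAC2 (64.4 to 75.8) against 50.8% of all ATAC4 peaks, and 75.4% in ATAC6 (69.6 to 80.4) against 57.3%. For ATAC3 the share was 27.9% (22.6 to 33.9) against 45.3%, and for ATAC7 31.2% (25.7 to 37.4) against 36.4%. ATAC4 peaks of these ranks that overlapped both ATAC5 and ATAC1 had 72.6% in ATAC2, 79.2% in ATAC6, 63.8% in ATAC3 and 54.3% in ATAC7. Against these the members were lower in ATAC3 and ATAC7, while their intervals for ATAC2 and ATAC6 held the other value. In ranks 1 to 3912, by contrast, only 13 of the 23 members were called in ATAC2, 11 in ATAC3, 13 in ATAC6 and 16 in ATAC7, where all ATAC4 peaks had from 88.5 to 90.9%. The pattern differed again in ranks 3913 to 7825, where ATAC3 called 20 of the 24 members, or 83.3% (64.1 to 93.3), against 83.98%, and ATAC7 called 19, or 79.2% (59.5 to 90.8), against 81.8%. ATAC2 called 12 of these 24, or 50% (31.4 to 68.6), against 82.5%, and ATAC6 14, or 58.3% (38.8 to 75.5), against 81.2%. In ranks 7826 to 11737, ATAC3 called 36.5% of the 52 members (24.8 to 50.1) against 66.002%, ATAC7 46.2% (33.3 to 59.5) against 59.7%, ATAC2 67.3% (53.8 to 78.5) against 66.9% and ATAC6 69.2% (55.7 to 80.1) against 70.8%. Against all ATAC4 peaks, the lower ATAC3 and ATAC7 shares thus did not hold in ranks 3913 to 7825. In ranks 11738 to 15650, with 240 members, the ATAC7 interval of 25.7 to 37.4 also held the 36.4% of all ATAC4 peaks.

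**Figure D3:**
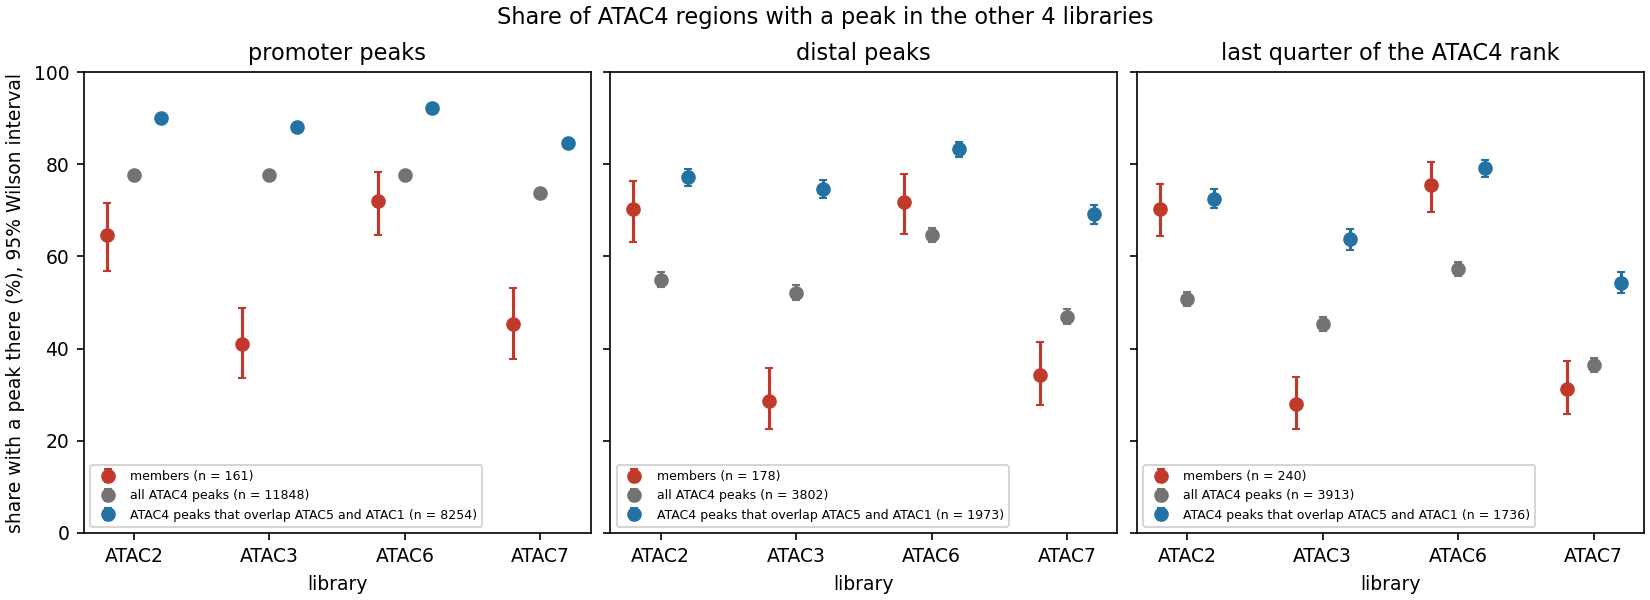
The share of regions (y axis, in percent, bars: 95% Wilson intervals) with a peak in ATAC2, ATAC3, ATAC6 and ATAC7 (x axis) for members, all ATAC4 peaks and ATAC4 peaks that overlap ATAC5 and ATAC1, at promoters, at distal sites and in ranks 11738 to 15650 of ATAC4. Members lie lowest in ATAC3 and ATAC7, at 41.0 and 45.3% for promoters and 28.7 and 34.3% for distal regions.

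The commonest combination was ATAC2 with ATAC6. It was seen at 74 members, or 21.8%, against 4.16% of all ATAC4 peaks and 3.52% of those shared with ATAC5 and ATAC1, and 45 of the 74 were distal. All 4 libraries were seen at 43 members, or 12.7%, against 47.5%. ATAC2, ATAC6 and ATAC7 together were seen at 41 members, or 12.1%, against 4.63% of all ATAC4 peaks, and ATAC6 alone at 33, or 9.73%, against 4.63%. ATAC2, ATAC3 and ATAC6 were seen at 28 members, or 8.26%, against 6% of all, and ATAC2 alone at 22, or 6.49%, against 1.99%. None of the 4 was seen at 29 members, or 8.55%, against 8.83% of all ATAC4 peaks and 1.16% of those shared with ATAC5 and ATAC1. Every other combination had 11 members or fewer.

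**Figure D4:**
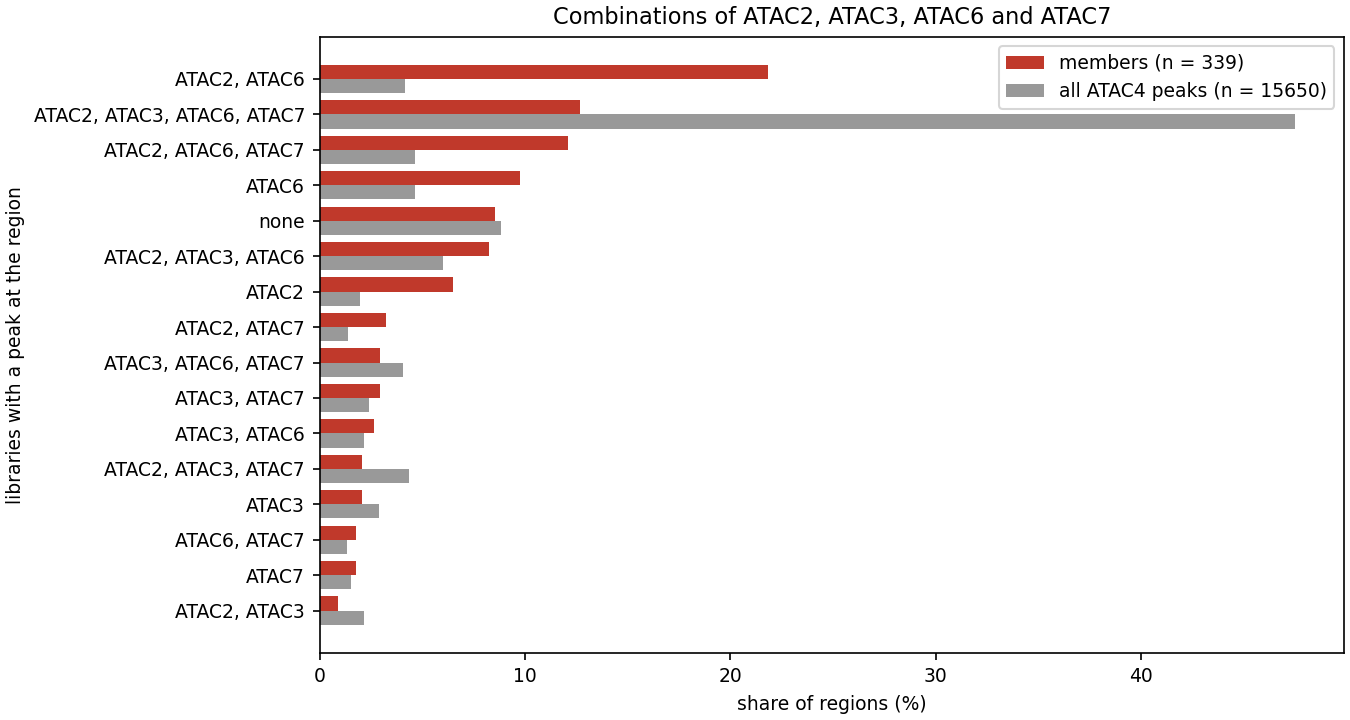
The share of regions (x axis, in percent) with each combination of peaks in ATAC2, ATAC3, ATAC6 and ATAC7 (y axis) among the 339 members and all 15650 ATAC4 peaks. ATAC2 with ATAC6 leads among members with 21.8%, and all 4 libraries lead among ATAC4 peaks with 47.5%.

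The 29 members called in ATAC4 and ATAC5 only were 10 promoter and 19 distal regions. After the Gm16845 and Zfp653 promoter, the best-ranked promoters were those of Fyco1, Arhgef1, Mef2a and Stard10, with ATAC4 folds of 7.61, 8.04, 3.11 and 2.55 and ATAC5 folds of 9.86, 16.5, 4.08 and 3.28. Mef2a encodes a MADS-box transcription factor. Peaks of ATAC2, ATAC3, ATAC6 and ATAC7 lay 255, 283, 425 and 255 bases from the Fyco1 member. An ATAC1 peak lay 796 bases from that member and was centred 211 bases from a Fyco1 start. Another ATAC1 peak lay 727 bases from the Arhgef1 member and was centred 61 bases from an Arhgef1 start. The distal ones were the region toward Lphn3 and those near Lcor, Zc3hc1, Lrp1 and Sun2, with ATAC4 folds from 2.03 to 5.09 and ATAC5 folds from 2.59 to 7.36. A peak without a shared base could still be close: among all members, 43 had an ATAC2 peak, 33 an ATAC3 peak, 33 an ATAC6 peak and 24 an ATAC7 peak within 500 bases in this way. The same counts over all ATAC4 peaks are not given here, so whether members differ in this is not known.

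The rule left fewer regions with ATAC1 than with ATAC2, ATAC3, ATAC6 or ATAC7 in its place. With the same rule, ATAC6 in the place of ATAC1 gave 413 regions, ATAC2 739, ATAC3 1129 and ATAC7 1552. Among the 1000 best ATAC4 peaks the number was 7 for ATAC1, 7 for ATAC6, 14 for ATAC2, 14 for ATAC3 and 5 for ATAC7. Regions called in the other 6 libraries with no peak within 500 bases numbered 59 for ATAC1 and from 85 to 582 for the others.

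The distance to ATAC1 ran from 502 to 3397408 bases with a median of 13400. It was at most 1000 bases for 47 members, at most 100000 bases for 302, and 18 members lay inside the outer region of an ATAC1 peak. Just inside the limit of 500 bases stood the regions near 1700001G17Rik, Bcl2l11 and Neat1, at 502, 517 and 519 bases, with ATAC4 folds of 4.46, 4.53 and 7.99. Just outside this limit stood those near Gm10300, Fbxl19 and Gm11131, at 494, 493 and 492 bases, with folds of 4.36, 9.16 and 3.74. The farthest promoter members were those of Lphn3, an adhesion receptor, at 3397408 bases, Irx2, a homeobox gene, at 699292 and Rai2 at 566996. The farthest distal members were the region toward Lphn3 at 2353124 bases, one in an intron of Dlg2 at 728975 and one near Gm9915 at 681411. The Lphn3 promoter had 62 reads and a fold of 2.60 in ATAC4 and 244 reads and a fold of 7.74 in ATAC5.

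A promoter far from ATAC1 by this rule was not always a gene without ATAC1 signal. An ATAC1 peak lay within 1000 bases of the same start for 35 of the 161 promoter members. Of the 186 genes with a start within 1000 bases of a member, 64 had an ATAC1 peak centred within 1000 bases of one of their starts. The ATAC1 reads at the members themselves are not known from peak lists, and the weakest ATAC1 peak held 24 reads.

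The share of promoters was 47.5% among members (42.2 to 52.8), against 75.7% of all ATAC4 peaks. It was 80.7% for peaks that overlapped ATAC5 and ATAC1, and 81.3% for the 854 that overlapped ATAC5 with an ATAC1 peak within 500 bases but no shared base. For the 1173 ATAC4 peaks that overlapped ATAC1 with no ATAC5 peak within 500 bases it was 40.6%. In ranks 11738 to 15650 it was 33.8% for members and 47.5% for all ATAC4 peaks. The nearest start belonged to a protein-coding gene for 147 of the 161 promoter members and to a lincRNA for 9, and 28 of them had starts on both strands within 1000 bases. The share with both strands over all promoter ATAC4 peaks is not given here. Counted by gene, lincRNAs were 9.68% of the genes at promoter members against 4.70% of those at ATAC4 promoter peaks. Protein-coding genes were 86.0% against 90.7%. Of distal members, 87 had their centre between genes, 78 in introns, 7 in coding exons, 5 in untranslated regions and 1 in a noncoding exon. The median distance of distal members to the nearest start was 10486.5 bases.

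Gene lists showed where members fell, and the members and lists were not chosen independently of these data. Over all genes, 186 of the 10720 with an ATAC4 promoter peak, or 1.74%, had a member there. Of the 9 sort markers, 3 had an ATAC4 promoter peak and Pdgfra was the member among them. Of the 22 stromal markers, 5 had an ATAC4 promoter peak, and 1 of these, Pdgfra, was a member. Pdgfra encodes the PDGF receptor used in the sort. Its promoter, chr5:75552308-75552422, had 47 reads and a fold of 5.91 in ATAC4, 152 and 12.4 in ATAC5, 170 and 9.26 in ATAC2, 162 and 7.29 in ATAC6, and 54 and 5.96 in ATAC7. ATAC1 and ATAC3 had no peak within 1000 bases of a Pdgfra start, and the nearest ATAC1 peak was 111561 bases from the member. Ly6a, which encodes the sort antigen Sca-1, had no promoter peak in any library.

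Markers of other lineages were also present. Of 21 annotated haematopoietic markers 9 had an ATAC4 promoter peak, and Kit, a receptor of haematopoietic progenitors, was a member with folds of 2.81 in ATAC4, 3.60 in ATAC5 and 4.07 in ATAC6. Of 18 endothelial markers 1 had an ATAC4 promoter peak, Vwf, which encodes the von Willebrand factor, and it was a member with folds of 3.89 in ATAC4, 6.196 in ATAC5 and 5.15 in ATAC2. Ptprc, the gene of CD45, had a promoter peak in ATAC1, ATAC3, ATAC5 and ATAC7, but not in ATAC4. Pecam1, the gene of CD31, had such a peak in ATAC5 alone. ATAC5 promoter peaks stood at 6 endothelial, 11 haematopoietic and 14 stromal markers, and ATAC1 promoter peaks at 1, 9 and 7. The sort gate of the study removed cells positive for CD31, CD45 or TER119. The part of other cell types in these calls was not tested. The other 5 lists had no promoter member. The numbers of their genes with an ATAC4 promoter peak were 3 of the osteogenic, chondrogenic and adipogenic genes, 3 of the oocyte and preimplantation genes, 2 Hox genes, 20 genes named as small nucleolar or other small RNAs, and 30 of the 32 polycomb and trithorax genes. At the 1.74% of all genes, less than 1 member would fall in each.

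Sp1 and Sp4 were 2 of the 15 Sp and Klf genes with an ATAC4 promoter peak, and 3 distal members lay nearest to Klf4 and Klf6. The Klf4 region, 1341 bases from its start, had folds of 3.13 in ATAC4 and 4.54 in ATAC5. The 2 Klf6 regions, at 4824 and 10068 bases, were called in all 6 libraries other than ATAC1, with ATAC4 folds of 6.66 and 7.92 and ATAC5 folds of 12.9 and 15.1. Rpl24 and Rps29 were 2 of 72 ribosomal protein genes. Of cell cycle genes, 1 of 26 was a member, Mcm5, a subunit of the replicative helicase. It had folds of 24.2 in ATAC4 and 47.3 in ATAC5 on 5 and 6 Input reads. This member lay 780 bases from the Mcm5 start and 570 from an ATAC1 peak centred 108 bases from an Mcm5 start. A distal region stood 170997 bases from Ccnd1, the gene of cyclin D1.

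Of the 264 genes named as zinc finger genes with an ATAC4 promoter peak, 7 were members: Zfp295, Zfp316, Zfp455, Zfp653, Zfp940, Zfp952 and Zfp960, or 2.65%. At Zfp960 the ATAC5 fold of 207 rested on 1 Input read and 122 library reads. Zfp455 had folds of 5.66 in ATAC4 and 10.5 in ATAC5, Zfp940 had 2.98 and 6.44, and Zfp316 had 2.47 and 4.33. A further 6 distal members lay nearest to Zbtb7c, Zfp365, Zfp41, Zfp536 and Zkscan16. Genes whose symbols start with Slc had 3 promoter members of 153, namely Slc16a6, Slc25a13 and Slc35d1, and 3 distal members near Slc1a5 and Slc25a37. The transporter genes Slco3a1, with 2 promoter members, and Slco5a1, with 1 distal member, have other symbols and are not in this count. Of the 56 histone genes whose symbols start with Hist, 1 was a promoter member, Hist1h1c, and H2afz, a histone variant gene with another symbol, was also a promoter member. The 3 genes Slco3a1, Slco5a1 and H2afz were named after their values were seen. The H2afz member lay inside the outer region of an ATAC1 peak. The nearest ATAC1 peak was 874 bases from it, with a fold of 19.9 and its centre 36 bases from an H2afz start. Of the 100 Mrpl, Mrps and Nduf genes of the mitochondrial ribosome and complex I, 1 was a promoter member, Mrpl40. Single distal members lay nearest to Hist1h1d, Hist1h2bj and Mrpl35.

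Nt5e encodes CD73, a marker of mesenchymal stromal cells. The region 50418 bases from its start held 46 reads in ATAC4, 128 in ATAC5, 116 in ATAC2, 47 in ATAC3, 121 in ATAC6 and 51 in ATAC7. The Input held 0 reads there in the ATAC4 table and from 1 to 3 in the others, so its folds are not given. The nearest ATAC1 peak lay 3573 bases away.

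There were 21 pairs of members within 100000 bases of each other, and no group of 3. The 339 members overlapped 344 ATAC5 peaks, and 6 ATAC5 peaks were shared by more than 1 member, as at Irs1 and Zbtb7c.

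Within each class the GC content of members was close to that of ATAC4, but fewer had a high CpG density. The median GC content was 67.5% at promoter members against 66.4% of all promoter ATAC4 peaks, and 53.9% against 53.7% at distal sites. Over the 300 bases around the centre, the observed over expected CpG exceeded 0.6 at 73.9% of promoter members against 83.6%, and at 12.9% of distal members against 23.4%.

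In the same 300 bases, over all ranks, the Runx core was more frequent at distal members and the Ets core less frequent at promoter members than in ATAC4. TGTGGT, on either strand, was found at 69 of the 178 distal members, or 38.8% (31.9 to 46.1), against 25.7% of all 3802 distal ATAC4 peaks and 24.2% of the 1973 shared with ATAC5 and ATAC1. In ranks 11738 to 15650 the distal shares were 40.3% (32.9 to 48.02), 29.8% and 27.96%. In the better ranks, with 5 of 19 distal members, they were 26.3% (11.8 to 48.8), 20.8% and 21.1%, so that the interval held the other values. At promoters the core was as frequent in members as in all ATAC4 peaks, with 10.6% in both. Its share at distal members was 37.6% where ATAC2 had a peak and 41.5% where it had none, and 33.3 and 40.9% for ATAC3, 37.5 and 42% for ATAC6, and 42.6 and 36.8% for ATAC7, with overlapping intervals in each.

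CGGAAG, the Ets core, was found at 28 promoter members, or 17.4% (12.3 to 24.0), against 32.3% of all promoter ATAC4 peaks and 36.0% of those shared with ATAC5 and ATAC1. In the ranks after 7825 the shares were 12.8% (7.93 to 20.1), 24.2% and 28.4%, and up to rank 7825 they were 29.5% (18.2 to 44.2), 37.6% and 39.4%. Up to that rank the interval of the members thus held the other values. GGGCGG was found at 63.4% of promoter members (55.7 to 70.4) against 70.8%, and at 17.98% of distal members (13.03 to 24.3) against 27.4%. These differences from all ATAC4 peaks did not hold throughout the ranks. For promoter members the share was 61.5% (52.5 to 69.9) against 59.9% after rank 7825 and 68.2% (53.4 to 80.001) against 77.9% up to it. For distal members it was 14.5% (9.84 to 20.8) against 19.2% in ranks 11738 to 15650, where peaks that overlapped ATAC5 and ATAC1 had 24.8%, and 47.4% (27.3 to 68.3) against 37.1% in the better ranks, which held 19 distal members. AGATAA, the Gata core, was found at 6.18% of distal members (3.49 to 10.7) against 17.1% of all distal ATAC4 peaks, but 7.86% of those shared with ATAC5 and ATAC1. The Yy1 spelling AAGATGGCG was in none of the 161 promoter members, which allows a share of up to 2.33% at the upper end of the interval, against 3.76%. Within the ranks the intervals held the other value: up to 3.18% against 2.23% after rank 7825, and up to 8.03% against 4.74% up to it.

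The other spellings were near the values of all ATAC4 peaks. The AP-1 element TGANTCA was at 23.6% of distal members (17.96 to 30.3) against 20.3%, the E-box CAGCTG at 25.3% against 23.1% and CCAAT at 34.2% of promoter members against 34.2%. The Ctcf spellings CNAGGGGGC and CNAGGTGGC were at 4.49 and 2.81% of distal members against 3.76 and 3.29%. TTGCNNAA, a Cebp spelling that takes in TTGCGCAA, was at 17.98% of distal members against 14.4%, and TTGCGCAA itself was in no member. The Nrf1 spelling GCGCATGC and the Creb spelling TGACGTCA were at 3.73 and 3.11% of promoter members against 4.89 and 3.01%. In all 28 shares were compared, 14 spellings at promoters and at distal sites, with no test and no allowance for their number. A match is a description of the letters and not of binding.

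**Figure D5:**
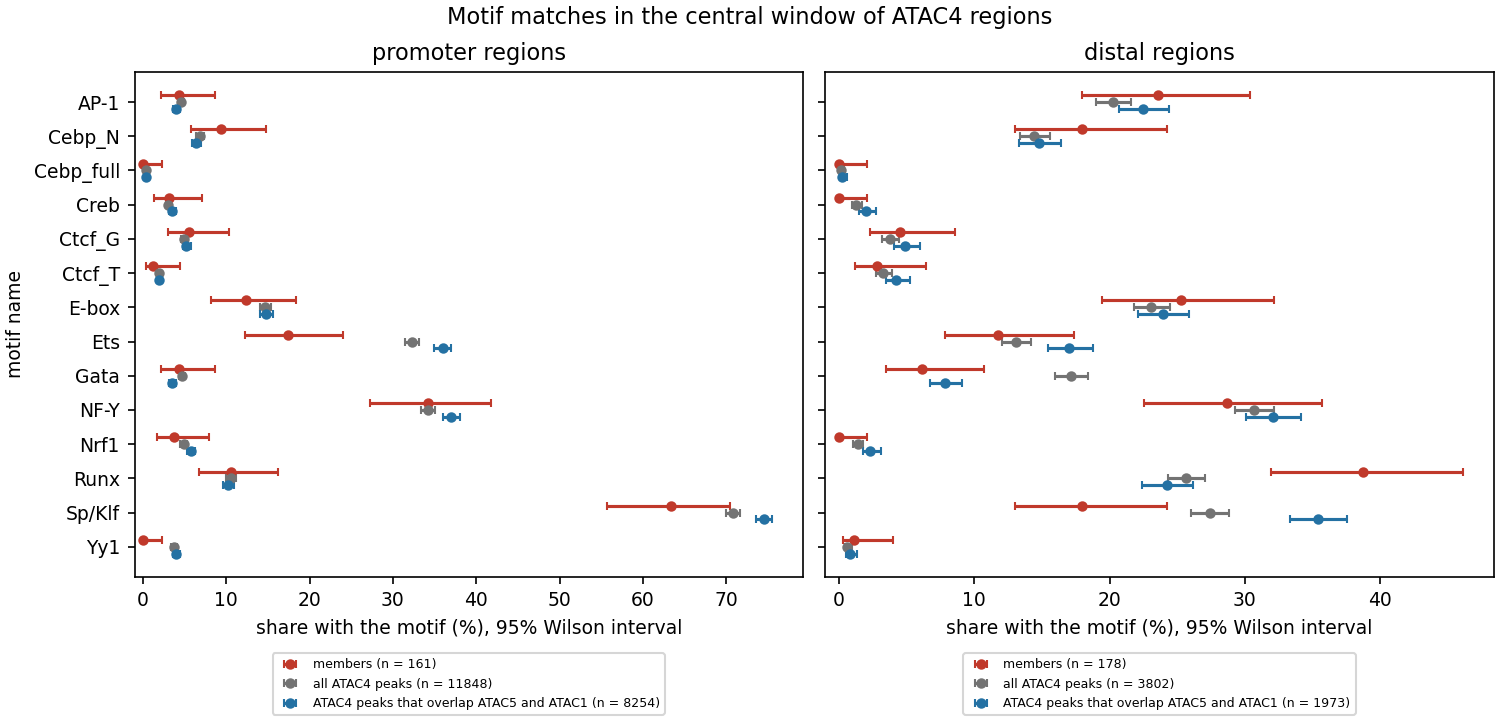
The share of regions with each motif (x axis, in percent, bars: 95% Wilson intervals) in the 300 bases around the centre, at promoter and distal sites, for members, all ATAC4 peaks and ATAC4 peaks that overlap ATAC5 and ATAC1. Distal members stand higher for the Runx core, with 38.8 against 25.7%, and promoter members lower for the Ets core, with 17.4 against 32.3%.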

How the data were processed

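ATAC-seq was analysed from the peak tables of 7 libraries, with 1 library per title and no replicate. Reads had been aligned by the authors to mm9 (Bowtie), and CisGenome had been run on every library with the Input as the second sample, with a p limit of 1e-05 and an FDR below 0.01. A shift for the transposase cut and removal of duplicates are not given in the sources used here. The deposited tables have no header. For a wider outer region around each peak, the deposited columns hold counts of library reads and of Input reads. They also hold signal statistics that the authors' peak caller wrote, which were not used here. The deposited fold is a ratio to the Input with an offset of 0.01 on the Input reads, so regions with few Input reads have unstable folds. Their separate coordinate lists held the same positions and were not used. Total reads per library are not known from these files.

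Coordinates were read as inclusive. The genome NCBIM37 and the GENCODE vM1 annotation were used. Distances count the bases between 2 peaks. Reads, Input and fold of a library at a member are those of its best-ranked overlapping peak. Each share has a 95% Wilson interval for counting error alone, and no p-value was computed, since regions are not replicates. The rule code was tested on simulated data. Alternatives changed the distance to ATAC1, the overlap, the peak number, the fold limit and the promoter window. The members and gene lists were chosen with earlier results of these data known. Regions were named by rule: the 12 best-ranked of each class, the 5 best of each class called in ATAC4 and ATAC5 only, the 5 highest and 5 lowest fold ratios of each class, the 3 farthest from ATAC1 of each class, those next to the limit, and those at listed genes. Analyses ran in Python 3.11.15 with pandas 2.3.3, scipy 1.17.1 and pysam 0.24.0.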

Additional observations from a re-analysis of the deposited data

How the results depend on the processing

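Of 104 values recomputed under 16 alternatives, 69 stayed within the interval of the reported value (a count within 1.5 times) and 35 did not. The number of regions was 1193 with no shared base with ATAC1 as the rule, 145 with 50% reciprocal overlap, 186 with a fold of at least 5 in ATAC4 and ATAC5, and 526 with the same number of best-ranked peaks. The promoter share was 71.7% with no shared base, 58.1% at 200 bases, 42.1% at 1000 bases, 54.8% with the same number of peaks, and 40.4 and 57.8% with promoter windows of 500 and 2500 bases. With no shared base the shares called were 53.4% in ATAC3, 64.9% in ATAC6 and 52.5% in ATAC7, and the median GC content was 62.4%. At 200 bases ATAC3 had 41.3% and ATAC6 66.4%. Under 50% reciprocal overlap ATAC2 had 44.8%, ATAC3 24.8%, ATAC6 47.6%, ATAC7 28.3% and none of the 4 22.1%. Counting peaks within 500 bases gave 78.3% in ATAC2, 49.3% in ATAC3, 79.6% in ATAC6, 52.0% in ATAC7 and 4.87% in none. With the same number of peaks ATAC2 had 53.4%, ATAC3 46.2%, ATAC6 65.4% and ATAC7 55.3%, with a GC content of 61.3%. With a fold of at least 5, ATAC7 had 47.3%, the median fold was 7.97 by construction and the GC content 55.2%. The GC content over 200 bases was 56.5%. The cause of these shifts was not tested. The start list, half-open starts and the outer regions of ATAC1 moved no value out of its interval.

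No paired analysis was possible because there is a single library under each title. Without replicates, a difference between libraries and one between cell populations cannot be told apart. An absent peak says only that no call was made at these limits, and whether the chromatin was closed is not known.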
